A study of Arabidopsis thaliana with 39 samples.

Results

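Shoot apices of Arabidopsis thaliana that lacked both LD and full POL2A function (ld pol2a) were compared with apices that carried the pol2a mutation alone, to see which pol2a changes were undone and which were deepened when LD was also lost. The comparison used the apex libraries whose labels name these genotypes, 3 of ld pol2a and 3 of pol2a, which are 6 of the 39 libraries of the series. The remaining 6 apex libraries, 3 of the ld mutant and 3 of the wild type Col0, entered the same fit and gave the pol2a changes themselves. All plants were 7 days old and grown on plates in 16 h of light per day, and each sample pooled 30 dissected apices, from which polyadenylated RNA was sequenced without a spike-in. The labels name neither the mutant alleles nor the number of lines, and do not say whether replicates were separate sowings. P-values therefore measure the spread between these samples, which may be technical, and any other difference between the lines cannot be told apart from the named mutations.

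LUMINIDEPENDENS (LD) is a homeodomain protein of the autonomous flowering pathway, a group of nuclear factors that keep the floral repressor FLC low and so allow flowering without cold. POL2A is the catalytic subunit of DNA polymerase epsilon, which copies the leading strand at replication forks. Plants with weak POL2A alleles are known for an activated DNA damage response and early flowering, and polymerase subunits have been tied to the keeping of Polycomb marks through replication.

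Expression is given in CPM, read counts scaled to a common library size. The ld pol2a libraries held 21095025, 14303132 and 16007173 counted reads and the pol2a libraries 13281803, 13442425 and 14478320, and the 12 apex libraries ranged from 11954021 to 21095025. LD itself had 4.93, 3.80 and 3.6 CPM in ld pol2a, against 11.2, 18.4 and 18.5 CPM in pol2a, a log2 fold change of -1.95 ± 0.32 (SE) with an adjusted p of 0.00254 (edgeR). POL2A RNA did not pass the test (log2 fold change -0.32, adjusted p = 0.517), and with the allele unknown its RNA level checks nothing. The meristem genes STM, KNAT1 and LOB were read in both groups, whereas WUS had 1 read in all over the ld pol2a libraries and 2 over the pol2a libraries. Of 11 root markers 5 were too low to test, and PLT1, which marks the root stem cell niche, had 0 reads in both groups, but WOX5 had 150 reads over ld pol2a and 71 over pol2a, IRT1 64 and 11, CASP1 124 and 84, and PIN2 87 and 29. The 6 root markers tested had a median log2 fold change of 0.44, with 0 called, and their part in the results was not tested. Replicates of a group differed by more than counting noise in every case, so none was a copy of another.

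Adding ld to pol2a changed 2678 of 18705 genes tested in apices at an adjusted p under 0.05 (edgeR), 14.3% of them: 1576 were higher in ld pol2a (8.43%) and 1102 lower (5.89%). Changes of over 1 log2 unit were rarer, 300 higher and 348 lower. The pol2a mutation alone had changed 1129 genes against Col0 (6.04%), 693 higher (3.70%) and 436 lower (2.33%). The ld mutation alone changed 181 genes against Col0 (0.968%), 71 higher (0.380%) and 110 lower (0.588%). At an unadjusted p under 0.05 (edgeR) the counts were closer, 3577 genes for ld and 3865 for pol2a against Col0. A gene not called in ld alone is thus not shown to be unchanged. Replicate 3 of ld stood apart, with log2 CPM correlations of 0.953 and 0.966 to ld replicates 1 and 2, which correlated at 0.989. No count for ld alone with a library left out is given here. Between ld pol2a and Col0 4807 genes differed (25.7%), 2774 higher (14.8%) and 2033 lower (10.9%) in ld pol2a. The effect of ld itself differed between plants with and without pol2a for 1410 genes (7.54%), by the interaction term of the same fit, 959 of them more positive with pol2a (5.13%) and 451 more negative (2.41%). The number of genes called rested on single libraries: 631 higher and 486 lower were called without ld pol2a replicate 2, 527 and 439 without ld pol2a replicate 3, 644 and 581 without pol2a replicate 2, and 876 higher without pol2a replicate 3. For pol2a against Col0 they were 362 and 176 without Col0 replicate 1, 328 and 187 without Col0 replicate 2, 458 higher without Col0 replicate 3, 402 and 238 without pol2a replicate 1, and 350 and 177 without pol2a replicate 2. For ld pol2a against Col0 they were 1580 and 1229 without ld pol2a replicate 2, 1521 and 1206 without ld pol2a replicate 3, and 1797 higher without Col0 replicate 2. The interaction gave 1971 and 1648 genes without ld replicate 3, and between 350 and 624 more positive and between 141 and 265 more negative without replicate 1 or 2 of Col0 or ld, or replicate 2 or 3 of ld pol2a or pol2a.

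Of the 1129 genes changed in pol2a apices, 236 (20.9%) were called in the opposite direction when ld was added, here termed restored, 68 (6.02%) were called further in the same direction, termed worsened, and 825 (73.1%) were neither. Restoration was uneven between the directions. It took in 147 of the 436 genes that were low in pol2a (33.7%) and 89 of the 693 that were high (12.8%), while 32 low genes (7.34%) and 36 high genes (5.19%) were worsened. Among all genes tested 8.43% were higher and 5.89% lower in ld pol2a, so the restored shares lay above those shares and the worsened ones near or below them. Among restored low genes the median log2 fold change was 1.13 for ld pol2a against pol2a and -1.21 for pol2a against Col0, and the median left between ld pol2a and Col0 was -0.08, with 133 of the 147 no longer called. Among restored high genes the medians were -0.92, 1.03 and 0.10, and 80 of 89 were no longer called against Col0. The pol2a libraries enter the comparisons on both sides of this count with opposite signs, so noise in them favours restored over worsened genes. The restored count was 129 without Col0 replicate 1 and also without Col0 replicate 2, 124 and 116 without ld pol2a replicates 2 and 3, and 153 and 110 without pol2a replicates 1 and 2. The worsened count lay between 12 and 43 with any of the 9 ld pol2a, pol2a and Col0 libraries left out.

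**Figure D1:**
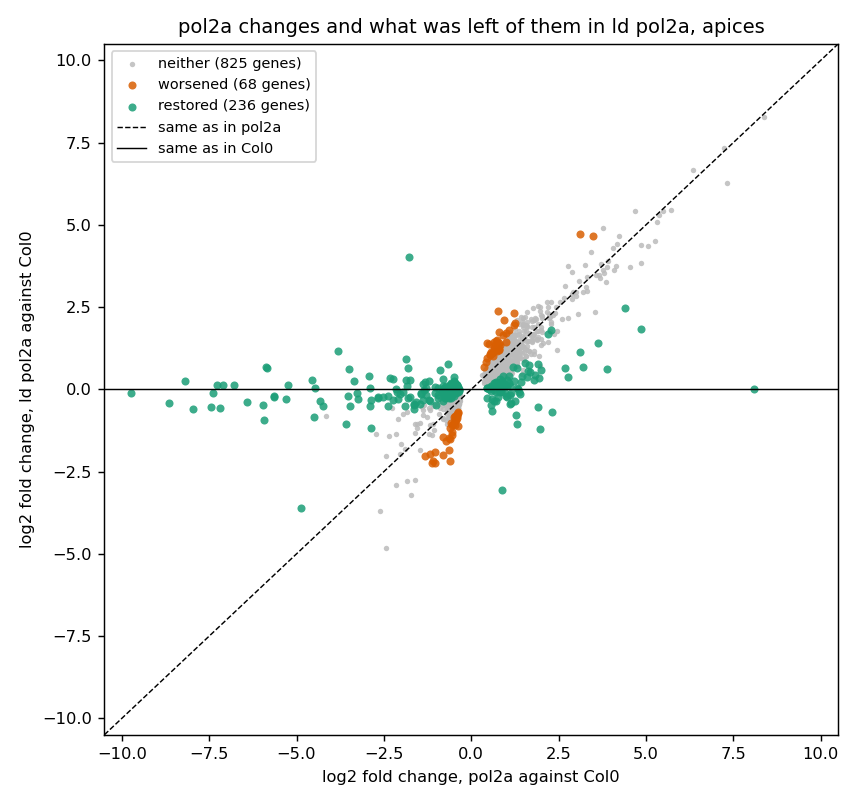
Each point is a gene called in pol2a against Col0, with its log2 fold change in pol2a against Col0 on the horizontal axis and in ld pol2a against Col0 on the vertical axis; both axes share the Col0 libraries. Most restored genes (80 of 89 rises and 133 of 147 falls not called against Col0) lie near the horizontal line, where ld pol2a equals Col0, with exceptions such as FLC, SOC1 and ESM1, while most large rises follow the diagonal, where ld pol2a equals pol2a.

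The split was sharpest for the largest changes. Of 34 genes that fell by more than 3 log2 units in pol2a apices, 33 were restored, and the exception, AT5G44973, had a log2 fold change of 3.35 that did not pass the test. Of 49 genes that rose by more than 3 log2 units in pol2a, 7 were restored and 2 were worsened. Under the other settings and with each library left out, between 32 and 38 such falls were restored, of between 33 and 46 found. The share restored was lower without the filter on low counts (37 of 45) and with DESeq2 (37 of 46).

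The 10 largest falls in pol2a by fitted fold change were all restored, and held MYB23, GLC, ZIP7 and BOR5 (the last pair of ion transporter families) beside AT5G33370, AT2G33850 and 4 other loci without a symbol. AT5G33370, annotated by RefSeq as a GDSL-like lipase, had 28.1, 25 and 26.6 CPM in ld pol2a, against 0, 0.0746 and 0 CPM in pol2a, where its 3 libraries held 1 read in all, and 31.7, 27.3 and 27.6 CPM in Col0. With 1395 reads over the ld pol2a libraries, its ratio to pol2a was 1078 (95% counting interval 193 to 42596, for counting error only). GLC, the GLAUCE gene, had 10.7, 9.61 and 8.16 CPM in ld pol2a and 2 reads in all in pol2a, a ratio of 194 (53.4 to 1606). AT2G33850, annotated as E6-like, stood at 185, 206 and 223 CPM in ld pol2a, against 0.645, 0.373 and 0.694 CPM in pol2a and 169, 150 and 194 CPM in Col0. For AT5G33370 and AT2G33850 the ld pol2a libraries lay at the Col0 level and far above all pol2a libraries. These 2 genes, ZIP7 and BOR5 were singled out after their values were seen.

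Trichomes are the branched hairs of the leaf epidermis. A complex of a MYB (GL1 or MYB23), a bHLH such as GL3 and the WD40 protein TTG1 starts their fate, GL2 and TTG2 act below it, and the small MYBs CPC, TRY and ETC1 inhibit neighbouring cells. Of 12 trichome genes tested, 8 were higher in ld pol2a than in pol2a (against 8.43% of all genes) and none was lower, with a median log2 fold change of 1.32. In pol2a against Col0 7 of the 12 were lower (2.33% of all genes), with a median of -1.38. GL2 had 18.6, 20.1 and 21.5 CPM in ld pol2a, against 1.45, 2.01 and 3.26 CPM in pol2a and 19.2, 17.1 and 29.1 CPM in Col0. Its log2 fold change was 3.14 ± 0.28 (SE), with an adjusted p of 7.16e-05 (edgeR). MYB23 had 4.53, 4.80 and 6.17 CPM in ld pol2a, or 265 reads, against 1 read over the 3 pol2a libraries, a ratio of 205 (36.4 to 8116). In neither gene did any pol2a library come near the range of ld pol2a or Col0.

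GL1 stood at 2.53, 2.65 and 2.76 CPM in ld pol2a and 0.887, 0.448 and 0.833 CPM in pol2a, a log2 fold change of 1.86 ± 0.26. MYB106, a MYB of the MIXTA type that shapes trichomes and the cuticle, had 9.01, 7.46 and 8.35 CPM in ld pol2a, against 5.08, 4.25 and 2.85 CPM in pol2a. Positive regulators and inhibitors moved the same way: TTG2 rose by 1.13, CPC by 2.02, TRY by 2.3 and ETC1 by 1.51 log2 units. All but ETC1 had been called lower in pol2a against Col0. The call of TRY was lost with any ld pol2a library, or pol2a replicate 2 or 3, left out. That of ETC1 was lost without ld pol2a replicate 2 or pol2a replicate 1 or 3. GL3, TTG1, ETC2 and SIM did not pass the test. With ld alone 0 of the 12 genes were called, GL2 differing from Col0 by 0.34 log2 units (adjusted p = 0.456), and the effect of ld differed with pol2a for 6 of the 12 genes (interaction term, 5.13% of all genes more positive). In such bulk samples fewer cells of a type and less RNA per cell cannot be told apart.

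The cuticle, the wax and cutin layer over the epidermis, had a list written after values were seen, so its counts are a description. Of 19 members tested, 7 were higher in ld pol2a (8.43% of all genes), 4 of which had been lower in pol2a (2.33%). CER1, an enzyme of wax alkane synthesis, had 56.2, 50.7 and 51.7 CPM in ld pol2a, against 5.24, 2.84 and 2.08 CPM in pol2a and 77.1, 71.6 and 55.3 CPM in Col0, a log2 fold change of 3.98 ± 0.25 (adjusted p = 2.91e-06). The cutin enzymes CYP86A4 and CYP77A6 rose by 4.52 and 2.44 log2 units, and GPAT6 and DCR, which act in the same pathway, by 0.90 and 0.76. CYP86A4 reached 30.6, 27.8 and 24.5 CPM in ld pol2a, against 1.29, 1.04 and 1.25 CPM in pol2a. SHN2, an ERF factor of the SHINE clade that promotes wax and cutin genes, is not on this list and was singled out after its values were seen. It had 2.00, 2.22 and 1.73 CPM in ld pol2a and 0.161, 0.149 and 0.139 CPM in pol2a, still under the 2.95, 3.66 and 4 CPM of Col0. SHN1, which is on the list, was too low to test. The remaining 12 genes of the list did not pass the test, so the rise was not shared by the whole list.

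**Figure D2:**
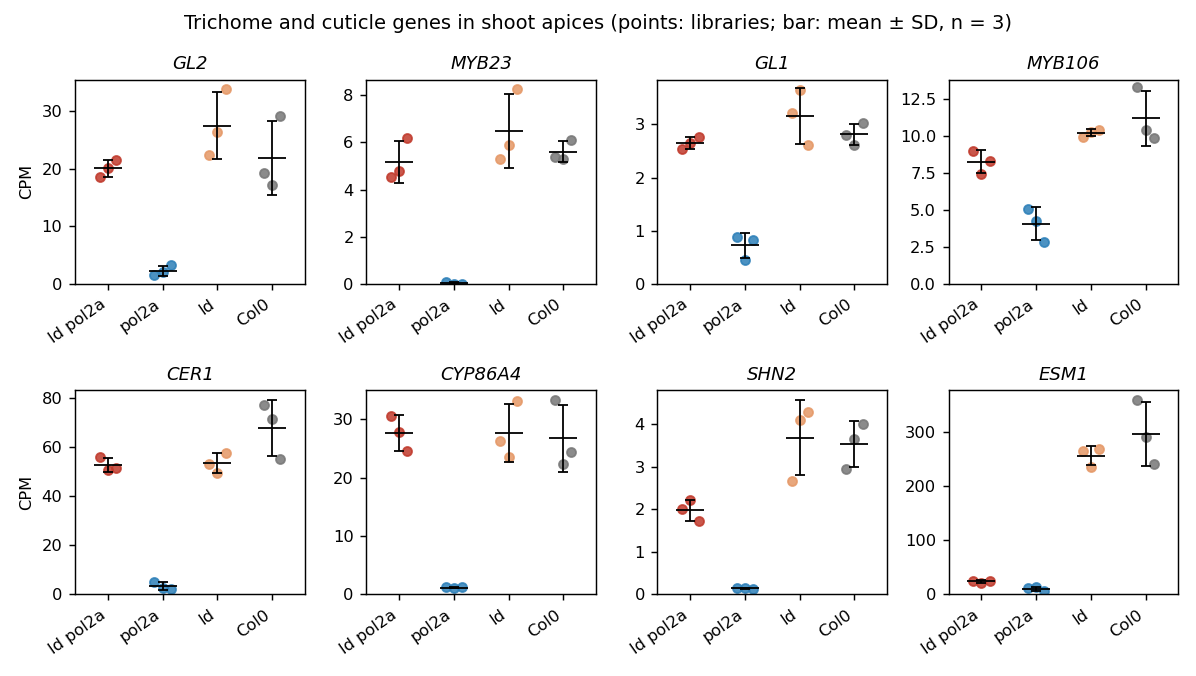
CPM of 8 genes in each apex library by genotype, with the mean and SD of 3 libraries as a bar. The pol2a libraries are the lowest in every panel. For most of these genes the ld pol2a libraries lie at or near the ld and Col0 levels. SHN2 stays under Col0 in ld pol2a, and ESM1 stays low.

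Other restored low genes included PME61, a pectin methylesterase, and PRP2, a proline-rich wall protein. PRP2 had 110, 108 and 114 CPM in ld pol2a, against 29.4, 22.1 and 21.7 CPM in pol2a and 128, 109 and 146 CPM in Col0. PME61 rose by 5.37 log2 units and SAT32 by 1.80. ESM1, a modifier of glucosinolate breakdown, was restored only in part. It had 25.7, 21.6 and 24.9 CPM in ld pol2a and 11.6, 13.1 and 5.83 CPM in pol2a, and Col0 held 359, 290 and 241 CPM, so ld pol2a stayed 3.62 log2 units under Col0.

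The same genotypes in 7-day-old whole seedlings, sequenced in other libraries with a spike-in, gave a check on genes chosen in apices. Seedling values are signal, counts that the authors divided by a size factor, put here on a scale where the median gene does not move. Of the 33 restored large falls, 31 could be tested there: 25 were lower in pol2a seedlings (80.6%, against 29.8% of all genes) and 27 were higher in ld pol2a than in pol2a seedlings (87.1%, against 27.0%; limma, adjusted p under 0.05). Over all 147 restored low genes the share was lower, 72 of 143 tested (50.3%) being higher in ld pol2a seedlings and 20 (14.0%) lower. GL2 signal was 156 to 178 in ld pol2a seedlings and 41.8 to 49.1 in pol2a seedlings, with 229 to 243 in Col0. CER1 signal was 155 to 207 in ld pol2a seedlings, against 9.30 to 19.9 in pol2a seedlings, whereas SAT32 (log2 fold change -0.04) and MYB106 (0.14) did not pass the test in seedlings. Seedling calls were common, 54.3% of genes for ld pol2a against pol2a and 59.9% for pol2a against Col0, so each share is read against them.

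The DNA damage response was high in pol2a apices and stayed high when ld was added. SOG1, a NAC factor, starts this response in plants and raises repair genes and cell cycle inhibitors. Of 25 such genes, 18 were higher in pol2a than in Col0 (3.70% of all genes), with a median log2 fold change of 1.78, whereas ld pol2a against pol2a had a median of -0.08 with 0 higher and 1 lower. That gene was XRI1, known from the X-ray response and meiosis, with 40.4, 27.4 and 31.3 CPM in ld pol2a, against 40.5, 47.8 and 49.3 CPM in pol2a. Its log2 fold change was -0.47 ± 0.14 (adjusted p = 0.0425) and it stayed 1.80 log2 units above Col0; it was not called without ld pol2a replicate 2 or 3 or pol2a replicate 2 or 3. TSO2, a small subunit of ribonucleotide reductase, had 766, 915 and 869 CPM in ld pol2a and 803, 808 and 772 CPM in pol2a, against 87.7, 79.1 and 73.0 CPM in Col0. BRCA1 had 44.8, 48.9 and 45.1 CPM in ld pol2a and 46.0, 43.6 and 54.5 CPM in pol2a, against 11.8, 8.28 and 10.6 CPM in Col0. The groups with pol2a overlapped each other in both genes and lay far above Col0.

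The 95% interval of the ld effect on TSO2 ran from -0.15 to 0.35 log2 units, small beside its rise of 3.31 in pol2a. TK1A, a thymidine kinase, and the cell cycle inhibitor SMR7 differed between ld pol2a and pol2a by -0.17 and -0.25 log2 units, neither past the test, and stood 2.84 and 5.45 log2 units above Col0. NAC044, a NAC factor of the same response, had 19.2, 22.9 and 27.8 CPM in ld pol2a and 18.1, 16.2 and 14.4 CPM in pol2a (adjusted p = 0.1). SMR5 had 62 raw reads over the ld pol2a libraries, 94 over pol2a and 3 over Col0. Its log2 fold change for ld pol2a against pol2a was -1.04, the lowest of this list, and was not called. It stayed 3.83 log2 units above Col0 in ld pol2a. Replication genes moved little, 1 of 28 being higher in ld pol2a (8.43% of all genes), and 0 of 19 mitosis genes passed the test. Of these lists 7 and 5 genes had been higher in pol2a (3.70% of all genes). The replication gene was MSI1, a histone chaperone subunit, higher by 0.28 log2 units. MSI1 was not called when any ld pol2a or pol2a library was left out. PCNA1, the sliding clamp, was 1.45 log2 units above Col0 in ld pol2a and 0.96 in pol2a. Its change in ld pol2a against pol2a came out stronger with DESeq2, with a replicate block and without pol2a replicate 1.

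Among flowering genes, FLC was higher and SOC1 lower with ld in either background. FLC had 75.5, 90.0 and 95.7 CPM in ld pol2a, against 1.69, 2.09 and 0.972 CPM in pol2a, and ld alone gave 61.4, 62.5 and 116 CPM, against 5.68, 4.62 and 5.89 CPM in Col0. The log2 fold change was 5.78 ± 0.32 with pol2a and 3.89 without it, and the effects differed by 1.89 (interaction term, adjusted p = 0.0189). The ld pol2a and ld libraries overlapped, and the pol2a libraries all lay below the Col0 libraries. By the rule used here FLC counts as restored, since pol2a lowered it by 1.77, but it went 4.01 log2 units past Col0. The neighbouring FLC relatives MAF5 and MAF4, also repressors of flowering, were lower in pol2a and rose by 2.79 and 1.34 log2 units in ld pol2a. SVP, which represses flowering together with FLC, was instead lower, with 31.1, 32.2 and 30.3 CPM in ld pol2a and 60.6, 55.4 and 55.0 CPM in pol2a. Of 14 floral repressors 3 were higher (8.43% of all genes) and 2 lower (5.89%).

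Of 11 floral promoters 4 were lower in ld pol2a than in pol2a (5.89% of all genes) and none was higher, with a median log2 fold change of -0.89. SOC1, which joins several flowering signals and is repressed by FLC, had 2.18, 2.29 and 2.44 CPM in ld pol2a, against 34.4, 37.3 and 35.9 CPM in pol2a and 17.8, 18.0 and 22.2 CPM in Col0. It fell by 3.96 ± 0.18 log2 units (adjusted p = 1.22e-07), past Col0 and to the level of ld alone. The meristem identity gene LFY fell by 1.97 to 0.400, 0.430 and 0.385 CPM in ld pol2a, against 2.1, 1.49 and 1.25 CPM in pol2a. FUL and SPL4 fell by 1.47 and 0.85, and neither was called when any of the 6 ld pol2a or pol2a libraries was left out. The number of promoters called was 2 without ld pol2a replicate 1, 2 or 3 or pol2a replicate 2 or 3, and 5 without pol2a replicate 1.

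Floral organ identity genes were partly held. SEP3, which joins the other organ identity proteins into complexes, had 3.68, 4.88 and 3.53 CPM in ld pol2a, against 6.61, 7.84 and 9.79 CPM in pol2a and 2.57, 4.28 and 4.45 CPM in Col0, so that the ld pol2a libraries overlapped those of Col0 and lay below those of pol2a; it was not called without ld pol2a replicate 3. SEP4 was lower by 1.03 log2 units. AG, the stamen and carpel gene, had 37 reads over the ld pol2a libraries and 51 over the pol2a libraries, against 1 over Col0, and its fall of 0.77 log2 units did not pass the test (adjusted p = 0.235). SEP1 likewise had 52 reads in ld pol2a, 55 in pol2a and 3 in Col0. Of 7 such genes tested 2 were lower in ld pol2a (5.89% of all genes), where 4 had been higher in pol2a (3.70%), and SEP4 was not called without ld pol2a replicate 2 or 3 or pol2a replicate 1 or 2.

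**Figure D3:**
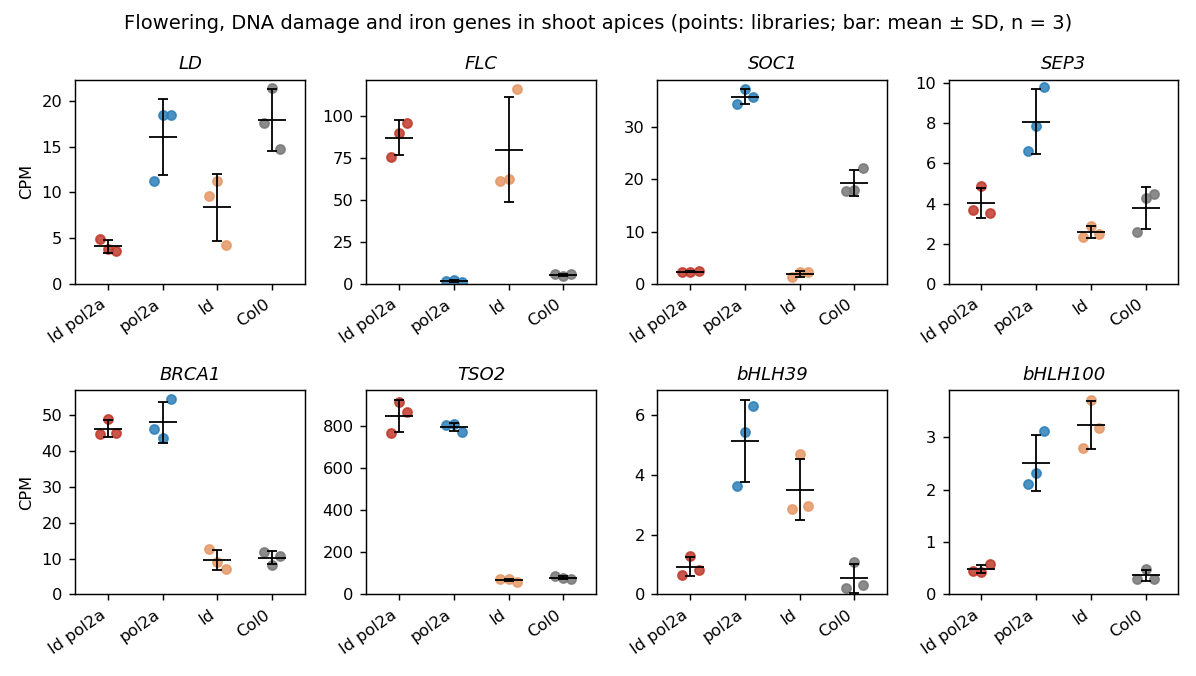
CPM of 8 genes in each apex library by genotype, with the mean and SD of 3 libraries as a bar. FLC is high and SOC1 low in both genotypes with ld, BRCA1 and TSO2 are high in both genotypes with pol2a, and bHLH39 and bHLH100 are high in each mutant alone but low in ld pol2a.

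Several iron deficiency genes were higher in each mutant alone than in Col0 and lower in ld pol2a than in pol2a. The factors bHLH38, bHLH39, bHLH100 and bHLH101 switch on iron uptake, IMA1 is a signalling peptide, and BTS is an E3 ligase that restrains the response. Of 11 genes 7 were lower in ld pol2a than in pol2a (5.89% of all genes), with a median log2 fold change of -0.94. Against Col0, 6 had been higher in pol2a (3.70% of all genes) and 5 in ld (0.380%). FER1, the iron store ferritin, had been lower in pol2a. In ld pol2a against Col0 0 of the 11 were called. FRO2 of this list had 49 raw reads over ld pol2a and 41 over pol2a, not scaled for the larger read total of ld pol2a. IRT1, named above as a root marker, had 64 and 11. Neither FRO2 nor IRT1 was called in ld pol2a against pol2a. bHLH100 had 0.444, 0.430 and 0.578 CPM in ld pol2a, against 2.1, 2.31 and 3.12 CPM in pol2a, 2.80, 3.72 and 3.17 CPM in ld and 0.303, 0.483 and 0.302 CPM in Col0. Its log2 fold change was -2.37 ± 0.29 (adjusted p = 0.000475), and the effects of ld with and without pol2a differed by -5.48 (adjusted p = 2.51e-05). bHLH39 had 0.666, 1.29 and 0.835 CPM in ld pol2a, against 3.63, 5.45 and 6.32 CPM in pol2a and 0.227, 1.1 and 0.302 CPM in Col0. For bHLH100 the ld pol2a libraries all lay below the pol2a libraries and overlapped those of Col0.

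bHLH101 and IMA1 fell by 2.45 and 1.39 log2 units, and bHLH38, whose sequence is close to that of bHLH39 so that reads could be split between them, by 1.95. BTS and PYE, which pol2a had not raised, fell by 0.92 and 0.94. Without ld pol2a replicate 2, 4 of the 11 genes were called. Seedlings went the other way: bHLH100 signal was 146 to 170 in ld pol2a seedlings, against 3.98 to 4.98 in pol2a seedlings and 9.56 to 15.2 in Col0, a log2 fold change of 4.91. All 7 genes that fell in apices were higher in ld pol2a than in pol2a seedlings by limma at an adjusted p under 0.05. Apices and seedlings were grown and extracted for different library types, so tissue and protocol cannot be told apart here.

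**Figure D4:**
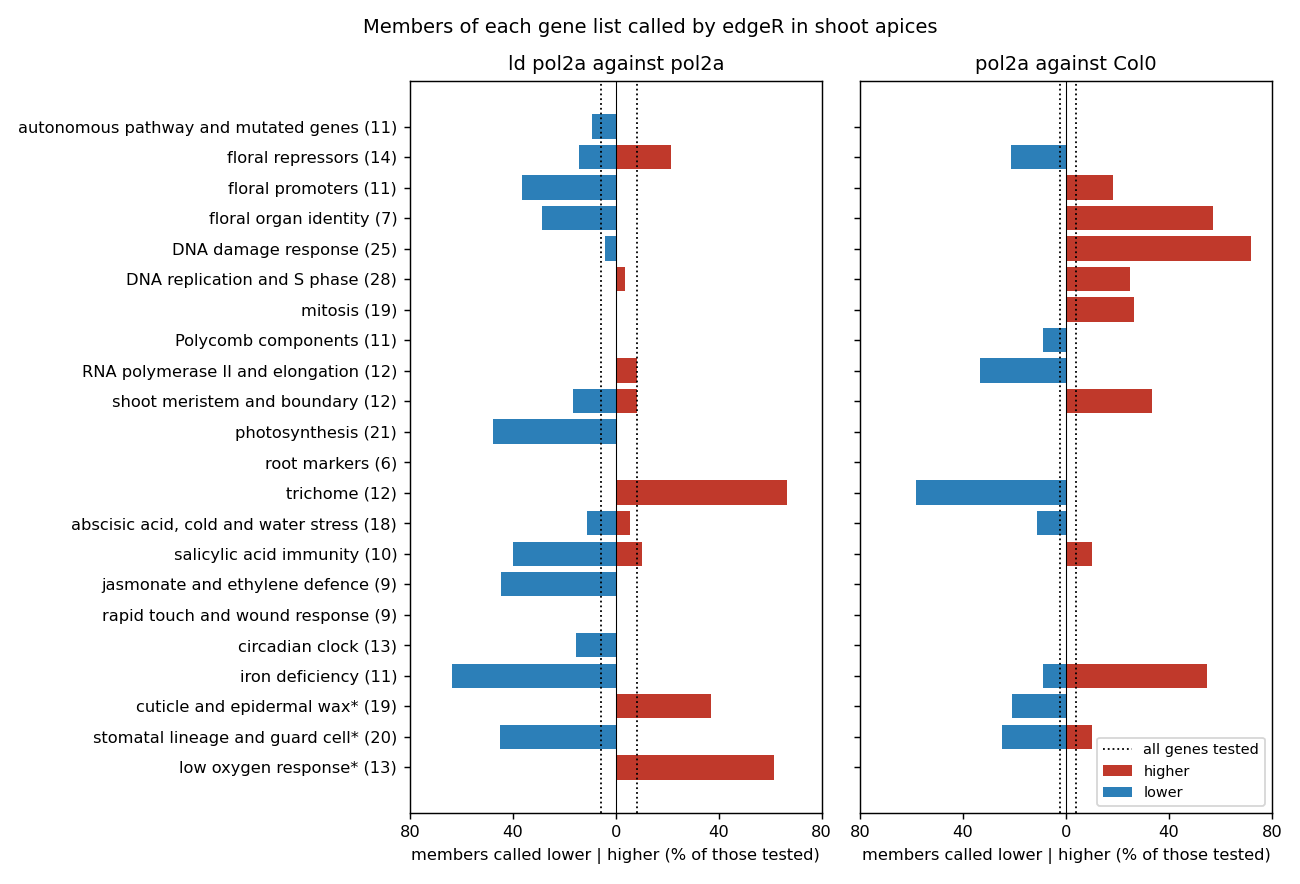
Share of the tested members of each gene list (number in brackets) called higher or lower by edgeR in ld pol2a against pol2a (left) and in pol2a against Col0 (right), with the share of all genes tested as dotted lines; an asterisk marks lists written after values were seen. Trichome genes (8 of 12 higher) and iron deficiency genes (7 of 11 lower) move opposite to their pol2a change, and the DNA damage list (18 of 25 higher in pol2a) barely moves.

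Of 21 photosynthesis genes 10 were lower in ld pol2a (5.89% of all genes) and none was higher, whereas 0 were called in pol2a against Col0. The list had a median log2 fold change of -0.63. RCA, Rubisco activase, had 3615, 3311 and 3124 CPM in ld pol2a and 6189, 6073 and 5245 CPM in pol2a, a log2 fold change of -0.80 ± 0.13 (adjusted p = 0.00269). GAPA and GAPB, the chloroplast glyceraldehyde phosphate dehydrogenases, fell by 0.53 and 0.76, and RBCS2B, whose near copies RBCS1B and RBCS3B could share its reads, by 1.08. The summed level of the list was 92526 to 105860 CPM in ld pol2a and 139194 to 151365 CPM in pol2a, ranges that did not overlap. With any library left out between 3 and 5 of the 21 genes were called (4, 4 and 3 without ld pol2a replicates 1, 2 and 3, and 4, 4 and 5 without pol2a replicates 1, 2 and 3). The share of chloroplast-encoded reads was 0.556 to 0.819% in ld pol2a and 0.634 to 1.11% in pol2a.

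Several genes of leaf metabolism stood among the largest falls, though no list was fixed for such genes. The photosynthesis values above also fell, and the part of leaf tissue in these falls was not tested. FBA5, a fructose-bisphosphate aldolase, had 45.9, 40.1 and 30.5 CPM in ld pol2a, against 253, 198 and 140 CPM in pol2a. The sucrose exporter SWEET12 fell by 2.16 log2 units, the nitrate transporter NRT1.7 by 2.08 and ATSPS4F, a sucrose phosphate synthase, by 2.37. FRO6 and FRO7, adjacent ferric reductase genes of green tissue, fell by 2.46 and 2.31. Large falls outside this group were those of CYP706A6, ORG1 and SQP1, by 2.39, 2.09 and 2.24 log2 units. SQP1 was called only narrowly (edgeR, adjusted p = 0.0390).

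UVH3, the plant XPG endonuclease of nucleotide excision repair, had 0.977, 0.645 and 0.514 CPM in ld pol2a, against 4.27, 6.87 and 7.57 CPM in pol2a and 7.87, 8.14 and 6.27 CPM in Col0. Its log2 fold change was -3.07 ± 0.39 (adjusted p = 0.000657), and ld alone did not lower it, with 13.7, 12.4 and 5.78 CPM in ld. The effects of ld with and without pol2a differed by -3.58 (adjusted p = 0.00239), and UVH3 was also lower in ld pol2a than in pol2a seedlings, by 1.28.

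Of 9 defence genes of the jasmonate and ethylene branch tested, 4 were lower (5.89% of all genes) and 5 did not pass the test, with a median log2 fold change of -1.1. PDF1.2a, a plant defensin, had 0.222, 0 and 0.128 CPM in ld pol2a, against 10.7, 9.93 and 2.29 CPM in pol2a. Its close copy PDF1.3 had 3 reads over the ld pol2a libraries and 120 over the pol2a libraries, and reads could be split between the copies. Against Col0, where PDF1.2a had 0.303, 0.138 and 2.19 CPM, ld pol2a did not pass the test. LOX2 and AOS, enzymes of jasmonate synthesis, fell by 1.42 and 1.1, though not without several single libraries; LOX2 had 111, 76.1 and 50.8 CPM in ld pol2a and 295, 211 and 134 CPM in pol2a, the lowest library of pol2a lying just above the highest of ld pol2a. Both defensins were instead higher in ld pol2a than in pol2a seedlings, PDF1.2a by 3.15.

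Of 10 salicylic acid immunity genes 4 were lower (EDS1, NPR1, WRKY54 and WRKY70, against 5.89% of all genes). Only PR5 was higher, near the share of all genes (8.43%). WRKY54 and WRKY70, paired WRKY factors of that pathway, fell by 1.59 and 0.84. In the list for abscisic acid, cold and water stress 2 of 18 were lower (5.89% of all genes) and only RD22 was higher (8.43%). COR15A, a cold-induced chloroplast protein, had 4.08, 3.51 and 2.57 CPM in ld pol2a and 11.8, 14.5 and 8.75 CPM in pol2a, and its regulator CBF3 fell by 2.22. Clock genes RVE1 and PRR7 fell by 1.01 and 0.66, 2 of 13 (5.89% of all genes). CCA1 had a log2 fold change of -1.17 that did not pass the test (edgeR, adjusted p = 0.135). Its change came out stronger with a replicate block. Of 12 meristem and boundary genes, only CUC3 was higher, by 0.94 (8.43% of all genes were higher). CLV1, a receptor kinase that limits the stem cells, was lower by 0.71 (5.89%). In pol2a against Col0 4 of the 12 had been higher (STM, KNAT1, LOB and PNY, against 3.70% of all genes). Of these only PNY, a homeodomain factor, was called lower in ld pol2a, by 0.50. STM and KNAT1 each had a log2 fold change of -0.1, and in ld pol2a stood 1.23 and 0.75 log2 units above Col0. CUC3 was not called with DESeq2 or without the filter. Its call was also lost with any ld pol2a library, or pol2a replicate 2 or 3, left out. The lists for Polycomb components (0 of 11 called), RNA polymerase II and elongation (1 of 12, VIP3), root markers (0 of 6), rapid touch response (0 of 9) and heat shock (1 of 3, HSP18.2) were near the background share or too short to read.

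Worsened falls held genes of the stomatal lineage, whose list was also written after values were seen. Of 20 members 9 were lower in ld pol2a (5.89% of all genes) and none was higher. In pol2a against Col0 5 of these 9 had already been lower (2.33% of all genes). TMM and POLAR, which act early in the lineage, had been higher (3.70%). In ld pol2a against Col0 12 members were lower (10.9% of all genes) and 4 higher (14.8%). FMA, a bHLH factor that ends the lineage by making guard cells, had 3.42, 5.31 and 3.98 CPM in ld pol2a, against 7.58, 10.6 and 8.54 CPM in pol2a and 18.4, 19.7 and 19.1 CPM in Col0. It fell by 1.09 ± 0.17 log2 units with ld (adjusted p = 0.00204), about as much as pol2a alone had lowered it (1.1), and with ld alone its log2 fold change was 0.07 (adjusted p = 0.831). CHX20, a guard cell cation exchanger, and TGG1, a myrosinase of guard and myrosin cells, fell by 1.2 and 1.19. KAT1, a guard cell potassium channel, and MYB60, a guard cell MYB, fell by 1.47 and 1.15, without being called in pol2a. SDD1 and MPK12 fell by 0.87 and 0.85, which did not hold without several single libraries. The photosynthesis list moved with these genes, and its part in the result was not tested.

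Worsened rises had a median log2 fold change of 0.73 for pol2a against Col0 and 0.6 for ld pol2a against pol2a. For worsened falls these medians were -0.55 and -0.64. PYK10, a beta-glucosidase of endoplasmic reticulum bodies, had 1538, 1659 and 1545 CPM in ld pol2a, against 1236, 1083 and 979 CPM in pol2a and 619, 597 and 640 CPM in Col0, and each step was free of overlap. ATWHY2, an organelle DNA-binding protein, had 59.6, 66.7 and 72.6 CPM in ld pol2a, against 42.3, 36.6 and 41.0 CPM in pol2a and a mean of 18.9 ± 1.16 CPM in Col0 (SD, n = 3). GRP5 (glycine-rich protein), NF-YC13, ATXR6 (a histone H3 methyltransferase active in replicating cells) and MSRB9 (a methionine sulfoxide reductase) rose by 0.78, 0.72, 0.72 and 1.19 log2 units. The calls of PYK10, GRP5, NF-YC13 and ATXR6 were lost without some single libraries. Of 35 worsened rises tested in seedlings 29 were higher in pol2a (82.9%, against 30.0% of all genes) and 17 were higher again in ld pol2a (48.6%, against 27.0%). Of 32 worsened falls 10 were lower in ld pol2a seedlings (31.2%, against 27.3%) and 9 higher (28.1%), near the shares of all genes.

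Other restored rises included PCC1, which fell by 3.02 log2 units after a rise of 4.87 in pol2a and was singled out after its values were seen. SIP4, a kinase of the CIPK family, had 27.5, 24.5 and 28.1 CPM in ld pol2a, against 40.4, 40.2 and 35.5 CPM in pol2a and 7.42, 8.35 and 9.44 CPM in Col0. OLEO4, an oleosin, CP1, a cysteine protease, BCA3, a beta carbonic anhydrase, and WRKY25 fell by 1.5, 1.16, 1.21 and 0.75 log2 units. SIP4 and WRKY25 stayed above Col0 by 1.67 and 0.79, both past the test. Of 83 restored rises tested in seedlings 35 were lower in ld pol2a (42.2%, against 27.3% of all genes) and 22 higher (26.5%, against 27.0%).

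Genes of the low oxygen response rose without having been changed in pol2a. Of 13 tested, from a list written after values were seen, 8 were higher in ld pol2a (8.43% of all genes). ADH1, alcohol dehydrogenase, had 13.4, 21.3 and 30.3 CPM in ld pol2a, against 3.23, 3.43 and 4.1 CPM in pol2a, a log2 fold change of 2.58 ± 0.31 (adjusted p = 0.000409). HRE2, an ERF factor of this response, had 1.82, 2.73 and 5.78 CPM in ld pol2a and 0.323, 0.224 and 0.208 CPM in pol2a. LBD41, a factor of the same response, rose by 1.38. FTM1, a fatty acid desaturase gene, rose by 5.53 to 14.4, 25.5 and 30.5 CPM in ld pol2a, against 0.645, 0.149 and 0.694 CPM in pol2a, and ld alone gave 9.01, 9.38 and 1.62 CPM, against 0.606, 3.04 and 0.906 CPM in Col0. In ADH1, HRE2, LBD41 and FTM1 ld pol2a replicate 1 was the lowest of its group and still above every pol2a library.

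Further large rises outside any list were EARLI1, a lipid transfer-like protein (2.44), CHX18, a cation exchanger (1.94), and MIOX4, an inositol oxygenase (1.80). QQS, an orphan gene known for heritable silencing, was the gene called of 3 tested in the list of silenced loci. It had 6.08, 5.67 and 5.72 CPM in ld pol2a, against 1.45, 1.49 and 0.902 CPM in pol2a, whereas ld alone lowered it, with 0.401, 0.372 and 0.141 CPM in ld and 0.909, 1.17 and 0.981 CPM in Col0. The effects differed by 3.90 log2 units (adjusted p = 0.000869). MRD1 and the overlapping HEI10 were high in every mutant and did not move further: MRD1 had 38.2, 47.5 and 49.6 CPM in ld pol2a and 43.8, 41.6 and 40.7 CPM in pol2a, with 28.0, 33.2 and 50.3 CPM in ld and 0.454, 0.138 and 0.226 CPM in Col0.

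The effect of ld in the pol2a background overlapped in part with its effect alone, which was measured in other libraries. Of 71 genes higher in ld than in Col0, 23 (32.4%, against 8.43% of all genes) were also higher in ld pol2a than in pol2a, and 7 (9.86%) were lower. Of 110 genes lower in ld, 23 (20.9%, against 5.89%) were lower and 21 (19.1%, against 8.43%) were higher in ld pol2a. As a share of the genes changed in ld pol2a against pol2a, the shared ones were 1.46% of those higher and 2.09% of those lower.

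Between tissues, 784 of 1539 genes higher in ld pol2a apices and tested in both (50.9%) were also higher in ld pol2a than in pol2a seedlings, against 26.9% of all genes. The shared genes were 16.2% of the 4828 higher in seedlings. Of 1061 lower in apices 445 (41.9%) were lower in seedlings, against 28.3% of all genes, and 262 (24.7%) were higher, against 26.9%. The genes lower in both were 8.77% of the 5077 lower in seedlings. Genes were also chosen by their pol2a change in seedlings, whether or not pol2a changed them in apices. Of 670 that fell by more than 1 log2 unit in pol2a seedlings, 8.66% were higher in ld pol2a apices (8.43% of all genes) and 10.3% lower (5.89%), with a median of -0.22. Of 776 that rose as much, 12.5% were lower (5.89%) and 3.99% higher (8.43%), with a median of -0.15.

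**Figure D5:**
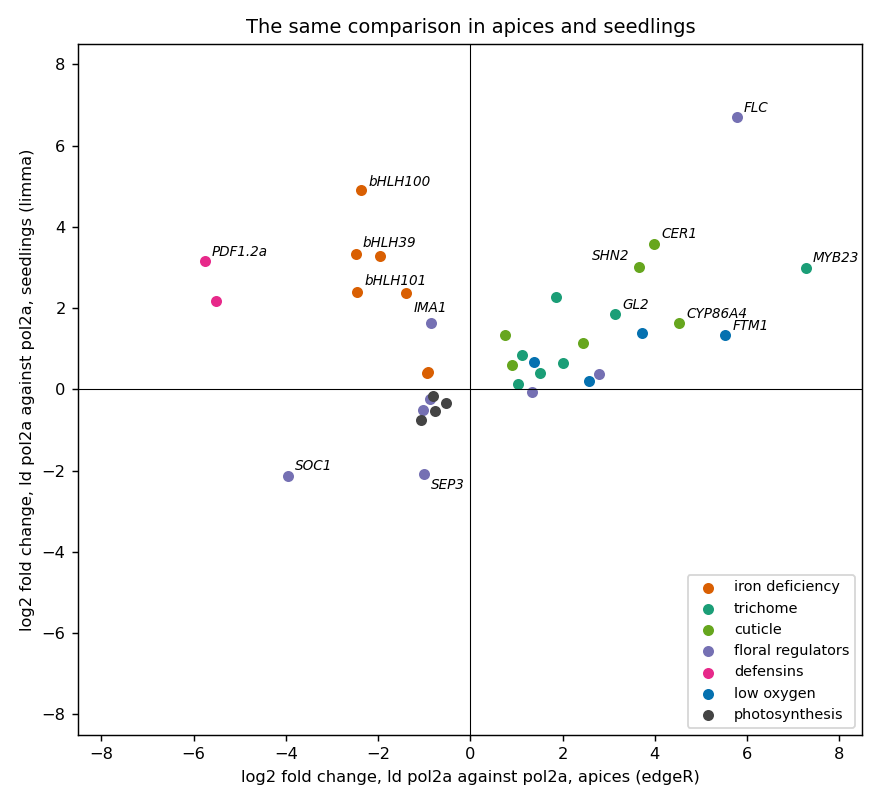
Log2 fold change of ld pol2a against pol2a in apices (horizontal axis, edgeR on counts) and in seedlings of other libraries (vertical axis, limma on log2(signal + 1)) for genes named in the text, coloured by group. Trichome, cuticle and low oxygen genes are positive on both axes, SOC1 and SEP3 are negative on both, and the iron deficiency genes and defensins are negative in apices and positive in seedlings. SHN2 is coloured with the cuticle genes, though it is not on that list.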

How the data were processed

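Gene counts of 12 apex libraries were used as deposited by the authors, raw and not normalised. The submitters' processing notes name Trimmomatic 0.38, HISAT2, SAMtools 1.9, featureCounts, deepTools and DESeq2 and the build TAIR10, with no roles, settings or strandedness. The seedling signal values are counts that the authors divided by size factors, per the deposited table's values. Genes were filtered with filterByExpr (18705 of 33562 kept), scaled by TMM and tested in edgeR 4.0.16 (quasi-likelihood, robust; R 4.3.3) in 1 fit over 4 groups of 3, with Benjamini-Hochberg adjustment at 0.05. Seedlings were tested with limma 3.58.1 on log2(signal + 1), mean at least 10, which understates the fold changes of low genes; the log2 fold changes were computed here and not by the authors. Both tests were checked on simulated data. DESeq2 1.42.0, RLE scaling, no filter, the replicate block, 2 groups only and each library left out were alternatives.

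The members, the 26 gene lists and the tests were chosen with earlier results of these data known, and 3 lists (cuticle, stomata, low oxygen) after their values were seen. Genes named were the 15 largest rises and falls with a symbol, at least 3 CPM and no overlap, the 6 largest restored and worsened in each direction, up to 4 per list by p, and others said to be chosen after seeing values, which include further members of lists. Symbols came from the RefSeq table for TAIR10.1 and from the lists. Counting intervals cover counting error only, since reads carry no molecular identifiers. Without known strand, reads of overlapping genes (FLC, GL2, TSO2, AT5G33370, SHN2, bHLH38, bHLH101, MYB106 and others) cannot be told apart from those of their partners, and close copies (bHLH38 and bHLH39, FRO6 and FRO7, TGG1 and TGG2) may share reads. No promoter or protein sequence was used here.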

Additional observations from a re-analysis of the deposited data

Results flagged for a closer look

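Many named genes had an effect of ld that differed with and without pol2a by the interaction term of the edgeR fit at an adjusted p under 0.05. Values below are the log2 change ld made in pol2a plants less the change it made without pol2a, and genes were tested across the whole table, of which 7.54% passed. Since the pol2a libraries enter this difference and also define the restored genes, it is not independent of that choice.

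Among trichome genes the difference was 7.06 for MYB23, 2.80 for GL2, 1.70 for GL1, 1.69 for CPC, 1.22 for TTG2 and 1.17 for MYB106. For cuticle genes and other deep falls it was 9.64 for AT5G33370, 8.21 for AT2G33850, 7.37 for GLC, 5.12 for PME61, 4.47 for CYP86A4 and 4.32 for CER1. It was 3.6 for SHN2, 2.41 for CYP77A6, 1.24 for DCR and 1.17 for GPAT6. Other restored low genes had 2.08 (PRP2), 1.88 (SAT32) and 1.46 (ESM1). AT5G33370, MYB23 and GLC had 1 or 2 reads in pol2a, so their fitted sizes depend on the prior count.

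Among iron genes the difference was -5.48 for bHLH100, -5.13 for bHLH39, -4.58 for bHLH101, -4.28 for bHLH38, -2.76 for IMA1, -1.59 for PYE and -1.48 for BTS. GLU1, which overlaps bHLH101, had -0.89. For the defensins it was -8.11 (PDF1.2a) and -7.92 (PDF1.3), for WRKY54 -2.33 and for WRKY25 -1.17. Other genes with large falls had -3.58 (UVH3), -3.47 (ORG1), -2.48 (SWEET12), -2.16 (FRO7), -2.01 (FRO6), -1.81 (CYP706A6), -1.59 (FBA5) and -1.40 (NRT1.7). Clock genes had -1.10 (RVE1) and -1.07 (PRR7), and stomatal genes -1.62 (TGG1), -1.27 (KAT1), -1.25 (CHX20), -1.21 (MYB60) and -1.16 (FMA).

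Further positive differences were 4.54 for HRE2, 3.90 for QQS, 1.89 for FLC, 1.84 for MIOX4, 1.72 for NF-YC13, 1.51 for LBD41, 1.02 for GRP5, 0.91 for PCNA1, 0.62 for PYK10 and 0.45 for MSI1. MRD1 and HEI10, high in each mutant alone and no higher in ld pol2a, had -6.97 and -1.74.

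Other genes moved in opposite directions in seedlings and apices, every library of ld pol2a lying on one side of those of pol2a in each tissue; the difference between tissues was not tested. The seedling log2 fold changes of genes that were lower in ld pol2a apices were 4.91 (bHLH100), 3.32 (bHLH39), 3.28 (bHLH38), 2.40 (bHLH101), 2.36 (IMA1), 0.42 (BTS) and 0.41 (PYE) for iron, and 3.15 (PDF1.2a), 2.18 (PDF1.3) and 0.06 (LOX2) for defence. They were 1.64 for SPL4, 0.75 for PRR7, 0.59 for SWEET12, 0.53 for CLV1, 0.52 for SIP4, 0.51 for MPK12, 0.50 for BCA3, 0.42 for ORG1, 0.29 for FRO6 and 0.18 for WRKY25. Among genes higher in ld pol2a apices they were -0.58 for RD22, -0.44 for PYK10, -0.36 for GRP5, -0.21 for FLD and -0.16 for MSI1, and FLD was not called in apices.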

How the results depend on the processing

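With 1 apex library left out, ld pol2a against pol2a ran from 527 to 1348 genes higher and 439 to 960 lower. In the same fits pol2a against Col0 ran from 328 to 591 and 176 to 345, and ld pol2a against Col0 from 1521 to 2289 and 1206 to 1868. The interaction ran from 350 to 1971 and 141 to 1648. Restored genes ran from 110 to 203 and worsened genes from 12 to 43. Iron genes called lower ran from 4 to 7, photosynthesis genes from 3 to 5 and floral promoters from 2 to 5, while trichome genes called higher ran from 6 to 7 and DNA damage genes higher in pol2a from 16 to 17. Each such fit also had fewer samples, and the cause of these shifts was not tested. The BRCA1 change, not called in any fit, ran from -0.14 to 0.02 and so changed sign. With DESeq2 pol2a lowered 692 genes, 730 had a more negative interaction and 130 were worsened; with 2 groups only pol2a lowered 227. RLE scaling gave 1464 genes higher and 1153 lower and DESeq2 1730 and 1386. Deviations of same-numbered ld pol2a and pol2a libraries from their group means had correlations of -0.15, -0.23 and 0.13. These values leave out ld and Col0 and cannot tell whether same-numbered libraries shared a sowing. With a replicate block 1939 genes were higher and 1583 lower, 328 were restored, 116 worsened and 719 had a more negative interaction. On the spike-in scale 19077 genes were higher in ld pol2a than in pol2a seedlings and 34 lower, so every seedling direction given here is relative to the median gene. Alternatives for gene lists and large falls were chosen after seeing the data.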
